A study of Mus musculus with 1152 samples.

Results

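The 6 genes of the angiopoietin-Tie system examined here were the ligand genes Angpt1 and Angpt2, the receptor genes Tek (which encodes Tie2) and Tie1, the phosphatase gene Ptprb (which encodes VE-PTP), and Svep1, which encodes a large extracellular matrix protein that binds Tie1. They were taken by symbol, 6 of the 23168 genes measured, and were followed over all cells analysed, 56.9% of the cells labelled. The cells were lymphatic endothelial cells (LECs) of the nasopharyngeal lymphatic plexus, sorted as CD31+ PDPN+ from the nasopharyngeal mucosa of aged C57BL/6 mice with no treatment named. Mucosa from both sexes had been pooled, the labels give no animal for any cell, and the cells were therefore treated as 1 pooled sample of 1 group, without replicates, p-values or a comparison with adult mice. Each cell was read with Smart-seq3, a full-length method carried out in plate wells.

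The angiopoietin-Tie system is a signalling pathway of endothelial cells in which secreted angiopoietins bind the receptor tyrosine kinase Tek, and Tie1, which resembles Tek, joins it in the same complexes. Angpt1 is the steady activating ligand and is made mainly by cells around vessels, whereas Angpt2 is made by endothelial cells themselves and can activate or block Tek, depending partly on Ptprb, which removes phosphate from Tek. The pathway is needed for the growth and remodelling of lymphatic vessels and for the formation of their valves.

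Because Angpt1 and Angpt2 are paralogs, as are Tek and Tie1, the first point was whether reads of one could be counted for the other. For each pair, a 60-base coding window around its longest run of identical bases is shown for this reason, 5′ to 3′ along the coding strand. It was taken from the gene models (GRCm38, the build also called mm10, GENCODE M21) and need not be the most similar window. Capitals mark the bases that are identical within the pair, 40 of 60 for the ligands and 41 of 60 for the receptors. The ligand windows lie in exon 9 of 9 of Angpt1 (chr15:42426973-42427032, minus strand) and exon 9 of 9 of Angpt2 (chr8:18692051-18692110, minus strand). The receptor windows lie in exon 18 of 23 of Tek (chr4:94859571-94859630, plus strand) and exon 18 of 23 of Tie1 (chr4:118474354-118474413, minus strand), in the part that encodes the kinase.
Angpt1: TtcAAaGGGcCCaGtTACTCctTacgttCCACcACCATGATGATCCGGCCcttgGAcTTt
Angpt2: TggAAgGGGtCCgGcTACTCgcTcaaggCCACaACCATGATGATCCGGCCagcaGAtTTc
Tek: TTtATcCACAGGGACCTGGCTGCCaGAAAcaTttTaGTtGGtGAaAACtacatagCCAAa
Tie1: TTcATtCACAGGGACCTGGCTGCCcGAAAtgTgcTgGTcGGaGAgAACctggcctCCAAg
The longest run of identical bases in the whole coding sequence was 17 for the ligands and 18 for the receptors. Neither pair shared a run of 31 coding bases. Exon bases outside the coding sequence were not compared. In the annotation, Angpt2 (chromosome 8, 18690263 to 18741562, minus strand) lies inside the span of Mcph1 on the other strand, with 0 exon bases in common. Mcph1 had reads in 16.8% of cells, against 79.4% for Angpt2. At full depth, 94.5% of the cells with Mcph1 reads had Angpt2 reads, against 76.4% of the other cells. Depth was not matched between these groups, and the share of cells with Angpt2 reads was higher in more deeply read cells. At 20000 reads per cell, Spearman's rho of the pair was 0.193. Whether the genes share reads was not tested. Angpt1 (chromosome 15, 42424723 to 42676977) shares 14.2% of its exon bases with the antisense gene Gm17473, and Svep1 (chromosome 4, 58042442 to 58206859) shares 13.9% with Gm26889. Whether reads were counted by strand is not given in the sources used here, so reads in those shared exon bases cannot be told apart.

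Values are natural logs of 1 plus reads per 10000, and a cell is said to have reads of a gene at any value above 0. Reads per cell ran from 7046 to 10727631 with a median of 148202, so shares were also taken at an equal depth, by drawing 20000 reads from every cell that had as many (86.6% of cells, called thinned cells; 88 cells had fewer). The 8 LEC identity genes had reads in a median of 97% of cells, with Flt4 in all of them. The label of the cells thus held by these markers, though Pdpn and Pecam1 among them encode PDPN and CD31, on which the cells were sorted. Genes of mural cells, a usual source of Angpt1, had reads in a median of 0.762% of cells, with Notch3 at 0, haematopoietic genes in a median of 1.22% and platelet genes in a median of 0.762%. The 6 blood endothelial genes had a median of 6.40%, with Esm1 in 0.457% of cells, Sox17 in 1.98%, Flt1 in 2.44%, Vwf in 10.4%, Cxcl12 in 45.9% and Gpihbp1 in 73.2%. Among fibroblast genes the median was 2.13%, with Dcn highest at 30.03%. Of the epithelial genes, Krt8 had reads in 0.610% of cells and Epcam and Krt18 in 0 cells, where 3 cells would make a share of 0.457%. The cells had also been stained for the protein that Epcam encodes before the sort. How that stain was used is not stated, so the lack of Epcam reads may not be independent of the sort.

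The genes fell into an abundant set, Tie1, Angpt2, Tek and Ptprb, and a set near 0, Angpt1 and Svep1. Of the 6 genes, 4 had reads in at least 50% of cells, as did 11.8% of all genes measured. By mean log level, 99.4% of the 23168 genes lay below Tie1, 97.6% below Angpt2, 97.4% below Tek and 97.2% below Ptprb. Below Angpt1 lay 45.8% and below Svep1 32.04%. The interval after a share is the exact 95% binomial one of Clopper and Pearson; it holds counting error only, and mice may differ by more.

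**Figure D1:**
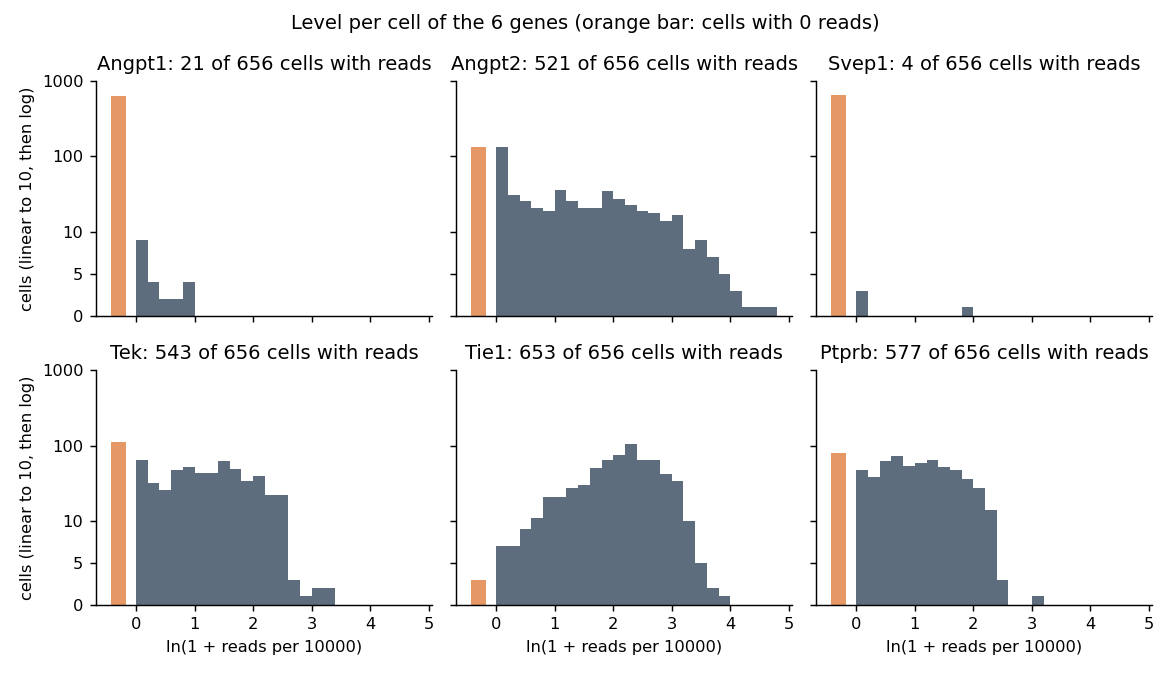
Histograms of the level of each gene over all cells analysed, as ln(1 + reads per 10000) on the horizontal axis and the number of cells on the vertical axis, which is linear to 10 and logarithmic above. The orange bar holds the cells with 0 reads: 20.6% of cells for Angpt2 against 96.8% for Angpt1 and 99.4% for Svep1, while the Tie1 values form 1 hump around a median of 2.20.

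Angpt2 was by far the more abundant angiopoietin gene in these cells. It had reads in 79.4% of cells (76.1 to 82.5%) and in 57.2% (53 to 61.3%) of the thinned cells. Its mean log level was 1.06 ± 1.15 (SD over all cells), the widest spread of the 6 genes. The lowest value was 0, the lower quartile 0.02, the median 0.63, the upper quartile 1.92 and the highest 4.65. Of the cells, 20.6% had no Angpt2 read and 15.4% had reads at a value below 0.1. A value above 1 was found in 44.5% and a value above 2 in 23.3%. Whether the low and the high cells form separate groups was not tested. On the linear scale the tenth of cells with the most Angpt2 held 58.6% of its summed level, against 25.6% for Tie1, 37.2% for Tek and 33.8% for Ptprb.

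Angpt1 was near the floor of the method. It had reads in 21 cells, 3.20% (1.99 to 4.85%), and in 2.11% (1.10 to 3.66%) of the thinned cells, with a highest value of 0.89. Its 630 reads were unevenly placed, since 1 cell held 52.9% of them and 9 of the 21 cells had 5 reads or fewer. The 21 cells were spread over all 5 clusters described below. Their median depth was 390963 reads, against 141687 in the cells with no Angpt1 read. Of the 21 cells, 6 also had reads of a fibroblast gene (28.6%, against 35.4% of the other cells) and 2 of a mural gene (9.52% against 6.30%). Haematopoietic genes had reads in 5 of them (23.8% against 18.1%), platelet genes in 1 (4.76% against 4.09%) and epithelial genes in 0 (against 0.630%). Whether the Angpt1 reads came from RNA of other cells was not tested. Of the runs of 96 consecutive cell numbers described below as blocks, the 2 most deeply read, blocks 8 and 9, held 4 and 3 of the 21 cells.

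Svep1 was rarer still. It had reads in 4 cells, 0.610% (0.166 to 1.55%), and in 1 thinned cell. Of its reads, 90.1% were in 1 cell, which had a value of 1.96 and lay in the upstream-valve-like cluster. The other 3 cells had 2, 2 and 17 reads among at least 1256426 each.

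Per kilobase of exon, the mean of reads per 10000 was 1.46 for Angpt2 and 0.00299 for Angpt1, a ratio of 487.2. The ratio was 346.8 per coding length and 523.8 with reads summed over cells before division. Angpt2 was the higher of the ligands in 78.4% of cells, Angpt1 in 1.52%, and neither had a read in the rest.

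Tie1 had reads in nearly every cell and the smallest fold between clusters. It had reads in 99.5% of cells (98.7 to 99.91%), all but 3, and in 96.8% (95.04 to 98.1%) of the thinned cells. Its log level ran from 0 to 3.90 with a median of 2.20 and a mean of 2.09 ± 0.71 (SD over all cells), and 91.2% of cells had a value above 1. The gene lies on chromosome 4, 118471191 to 118490061, on the minus strand.

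Tek, the receptor that binds the angiopoietins, was lower. It lies on the same chromosome (94739289 to 94874976, plus strand) and had reads in 82.8% of cells (79.7 to 85.6%), or 71.1% (67.2 to 74.8%) after thinning. Its log level ran from 0 to 3.25, with quartiles of 0.11 and 1.64, a median of 0.98 and a mean of 1.01 ± 0.81 (SD over all cells). Per kilobase, Tie1 had 3.08 times the mean of Tek, 1.85 against 0.599 reads per 10000, and was the higher receptor in 84.9% of cells.

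Most cells carried both receptors. After thinning, 69.7% of cells (65.8 to 73.5%) had reads of Tek and Tie1, 27.1% (23.5 to 30.97%) of Tie1 without Tek, 1.41% of Tek without Tie1, and 1.76% of neither. Cells lacking a read of 1 receptor gene thus nearly always lacked that of Tek. A missing read at this depth does not show that a cell lacked the transcript: the share with Tek rose from 73.5% in the shallowest of 3 equal depth groups to 92.2% in the deepest, while the mean log level was 0.99 and 1.08.

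Ptprb (chromosome 10, 116275523 to 116389535), whose product dephosphorylates Tek and the adhesion molecule encoded by Cdh5, had reads in 87.96% of cells (85.2 to 90.3%), or 76.6% (72.9 to 80.01%) after thinning. Its log level ran from 0 to 3.18 with a median of 0.92 and a mean of 0.94 ± 0.67 (SD over all cells). This transcript is long, and per kilobase of exon its mean was only 0.168 reads per 10000, so that Tie1 had 11.02 times and Tek 3.58 times as much. The size of this gap depended on the length used. Per coding length Tek had 2.59 times the mean of Ptprb. Before any division by length the means were 9.08 for Tie1, 2.82 for Tek and 2.23 for Ptprb. Tek exceeded Ptprb per kilobase in 67.4% of cells and was below it in 28.2%. Tek, Tie1 and Ptprb were read together in 55.5% of the thinned cells (51.3 to 59.6%), and all of these with Angpt2 in 30.6% (26.9 to 34.6%).

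Per kilobase of exon the order of the mean levels was Tie1, Angpt2, Tek, Ptprb, Angpt1 and Svep1. Its first neighbours were close, at 1.27 times for Tie1 over Angpt2, with Tie1 higher in 72.1% of cells. This order turned per coding length, where Tie1 had 0.734 times the mean of Angpt2, while the rest of the order was the same. The place of Angpt2 above Tek was set by a minority of cells with high values: the mean was 2.43 times that of Tek, yet Angpt2 was the higher in 47.6% of cells and Tek in 47.4%.

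The cells were then clustered with the 6 genes and the pathway genes named below left out of the clustering, so that they did not define the groups they were compared over. Of the 6, Angpt2 alone would have been among the variable genes. The 5 clusters held 32.01%, 28.5%, 15.7%, 12.2% and 11.6% of cells. Cluster 1 was Ptx3+ capillary-like, with Ptx3, Stab2, Mrc1 and Itih5 raised, and cluster 5 was upstream-valve-like, with Cldn11, Neo1 and Esam raised. Ptx3 itself had reads in only 99 of all cells (15.1%), fewer than the 210 cells of cluster 1, where its mean log level was 0.23. The name Ptx3+ capillary-like thus describes the cluster as a group, and many of its cells had no Ptx3 read. Of the upstream-valve list, Foxc2 and Itga9 were not raised in cluster 5, and Cldn11 is also on the downstream-valve list. The remaining clusters were not named and are called by leading or raised genes, the Apoe-Bmp4 cluster (2), the Fndc1 cluster (3) and the Ptn cluster (4). Cluster 2 raised 3 precollecting and 3 downstream-valve markers alike, cluster 3 raised 1 marker of its class, and cluster 4 raised Ptn, Stc1 and Anxa3, which had been listed with earlier results known. The names were rebuilt from markers and need not hold the same cells as classes of the study.

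Of the 4 genes with reads in at least 20% of cells, 3 (Angpt2, Tek and Ptprb) differed at least 2-fold between the highest and the lowest cluster mean, with 0.1 reads per 10000 added to both, as did 19.3% of the 7199 genes compared. Many of those genes were used for the clustering, which the 6 were not. The folds on this scale were 6.21 for Angpt2, 2.82 for Tek, 2.19 for Ptprb and 1.12 for Tie1, and 0.931% of the genes compared had a smaller fold than Tie1. Cells of a cluster are not replicates, so these are descriptions of 1 pool.

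**Figure D2:**
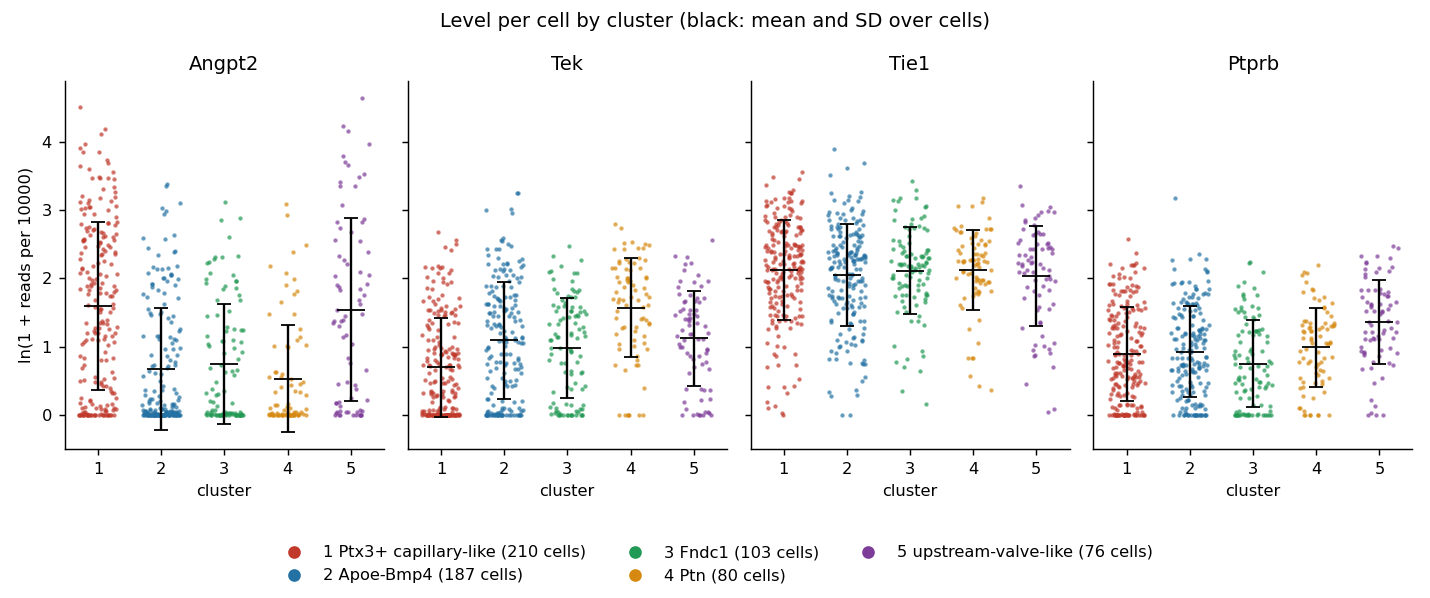
Level of Angpt2, Tek, Tie1 and Ptprb in each cell by cluster, as ln(1 + reads per 10000), with the mean and SD over cells in black. Angpt2 is highest in clusters 1 and 5 (means of 1.60 and 1.54), Tek in cluster 4 (1.57) and Ptprb in cluster 5 (1.36), while the Tie1 means lie between 2.04 and 2.13.

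Angpt2 was high in the Ptx3+ capillary-like and the upstream-valve-like cells and lower in the other clusters. In the Ptx3+ capillary-like cells its mean log level was 1.60 ± 1.23 (SD over cells, n = 210), with values from 0 to 4.52. In the upstream-valve-like cells it was 1.54 ± 1.34 (SD, n = 76), with values from 0 to 4.65. The means were 0.75 ± 0.88 in the Fndc1 cluster, 0.67 ± 0.90 in the Apoe-Bmp4 cluster and 0.53 ± 0.79 in the Ptn cluster. All clusters held cells with no Angpt2 read and cells above 3, so their ranges overlapped, and no difference between cluster means exceeded the SD over cells of the Ptx3+ capillary-like cells. On the linear scale the Ptx3+ capillary-like mean of 9.08 reads per 10000 was 5.54 times that of the Ptn cluster, and the upstream-valve-like mean of 10.7 was 6.53 times.

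The share of thinned cells with Angpt2 was also highest in clusters 1 and 5 and lowest in the Ptn cluster. It was 74.2% (67.1 to 80.4%) in Ptx3+ capillary-like and 66.2% (53.7 to 77.2%) in upstream-valve-like cells, against 49.1% (41.3 to 56.9%) in the Apoe-Bmp4 cluster, 48.3% (37.4 to 59.2%) in the Fndc1 cluster and 35.3% (24.1 to 47.8%) in the Ptn cluster. The upstream-valve-like interval overlapped those of both neighbours in this order, and the intervals of the last clusters, from Apoe-Bmp4 to Ptn, overlapped each other. The tenth of cells with the most Angpt2, 66 cells from all 12 blocks, had 39 in the Ptx3+ capillary-like and 16 in the upstream-valve-like cluster.

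Tek ran in another order. It was highest in the Ptn cluster, at a mean of 1.57 ± 0.73 (SD over cells, n = 80), and lowest in the Ptx3+ capillary-like cells, at 0.70 ± 0.73 (SD, n = 210). This difference, 0.87, was larger than either SD, the only pair of clusters for which that held in any of the 4 genes. The upstream-valve-like, Apoe-Bmp4 and Fndc1 clusters lay between, at 1.12, 1.09 and 0.98, and did not differ beyond the spread of their cells. After thinning, 89.7% of Ptn cluster cells (79.9 to 95.8%) and 57.9% of Ptx3+ capillary-like cells (50.3 to 65.2%) had Tek reads, and the linear means differed 2.92-fold. With no covariates regressed before clustering, the Tek means of the clusters ran only from 0.87 to 1.23, a range of 0.37, and the highest was in a cluster of 38 mostly upstream-valve-like cells. That clustering also used a resolution of 0.5 and shared little with the main one (adjusted Rand index 0.302), and what lowered the range was not tested.

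Ptprb was highest in the upstream-valve-like cells, at 1.36 ± 0.62 (SD over cells, n = 76). The Ptn, Apoe-Bmp4 and Ptx3+ capillary-like clusters had means of 0.99, 0.93 and 0.89, and the Fndc1 cluster the lowest, 0.75 ± 0.63 (SD over its cells), a linear difference of 2.26-fold from the highest. The place of the lowest mean depended on the resolution. At 1.0 and 1.5 it lay in a small cluster drawn mostly from main cluster 1 (0.53 in 33 cells and 0.57 in 39 cells). The other reclusterings had it in a cluster drawn mostly from the Fndc1 cluster. Tie1 was at 2.04 to 2.13 in all clusters. It had reads in at least 95.6% of the thinned cells of each.

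Depth and other cell types differed somewhat between the clusters. Median reads per cell ran from 73757 in the Ptn cluster to 198936 in the upstream-valve-like cluster. Thinning left the range of cluster means at 1.19 for Angpt2 and 0.86 for Tek, against 1.06 and 0.87 without it. The summed level of the 6 mural genes averaged 0.696 reads per 10000 in Ptx3+ capillary-like cells and at most 0.0799 in the others. The highest mural sum in a single cell was 134.2, and the means of the other clusters are too low to include it. Most of the Ptx3+ capillary-like mural mean thus came from that cell. The summed level of the fibroblast genes averaged 1.74 in Ptx3+ capillary-like and 2.07 in Ptn cluster cells, against 0.203 to 0.655 in the rest. Whether a few cells held most of these fibroblast sums was not tested. Without the 16.5% of cells with reads of at least 2 haematopoietic, fibroblast, mural, epithelial or platelet genes, the ranges were as large, 1.15 for Angpt2 and 0.96 for Tek.

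No plate names were given, so consecutive cell numbers were taken in 12 blocks of 96, with 18 to 83 cells analysed in each. Whether a block was a plate is not stated. Block means ran from 0.80 to 1.44 for Angpt2, 0.76 to 1.31 for Tek, 1.84 to 2.23 for Tie1 and 0.79 to 1.13 for Ptprb, narrower than the cluster means for Angpt2, Tek and Ptprb and wider for Tie1. Within blocks, Angpt2 was higher in clusters 1 and 5 together than in the other clusters in 12 of 12, by 0.54 to 1.43. Tek was higher in the Ptn cluster than in the Ptx3+ capillary-like cluster in 10 of the 10 blocks with at least 3 cells of each, by 0.22 to 1.41. These pairs of clusters were chosen after their means were seen.

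**Figure D3:**
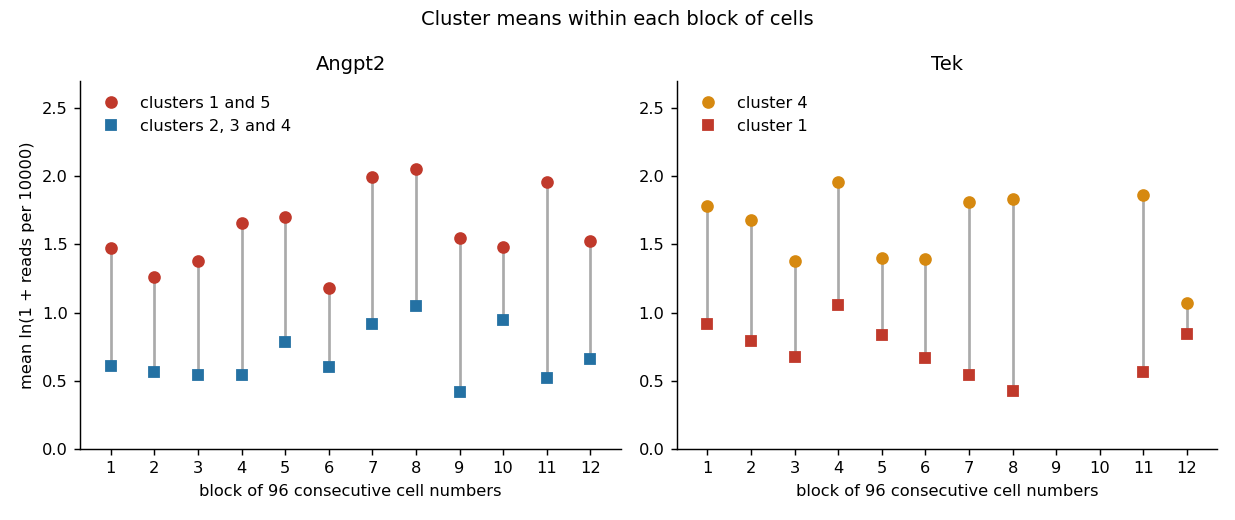
Mean ln(1 + reads per 10000) of Angpt2 (left) and Tek (right) in the named clusters within each block of 96 consecutive cell numbers; a grey line joins the means of a block. Angpt2 is higher in clusters 1 and 5 in all 12 blocks, by 0.54 to 1.43, and Tek is higher in cluster 4 than in cluster 1 in the 10 blocks with at least 3 cells of both.

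Across single cells, Angpt2 and Tek varied in opposite directions, weakly. Spearman's rho was -0.168 over all cells and -0.200 over the thinned cells. It was -0.178 with the number of detected genes regressed and -0.101 with cluster means removed. Without thinning, rho was below 0 in 11 of 12 blocks, from -0.423 to 0.085, and in 3 of 5 clusters. The points share 1 pool and their depth. In shares of cells the intervals overlapped: Tek had reads in 68.6% (63.3 to 73.6%) of thinned cells with Angpt2 and 74.5% (68.5 to 79.8%) of those without.

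**Figure D4:**
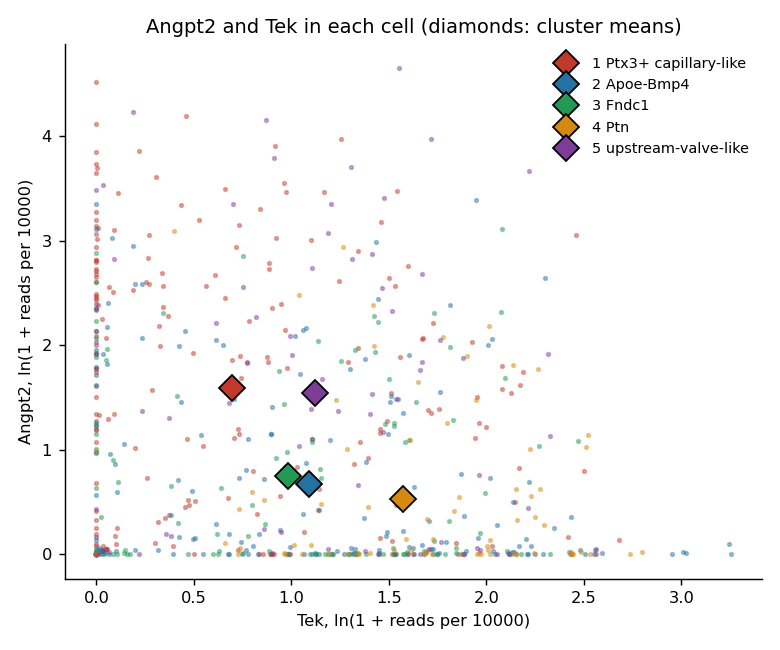
Angpt2 against Tek in each cell, both as ln(1 + reads per 10000), coloured by cluster, with cluster means as diamonds. The Ptx3+ capillary-like mean lies at 1.60 for Angpt2 and 0.70 for Tek, the Ptn cluster mean at 0.53 and 1.57, and single cells of all clusters overlap.

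The remaining pairs of abundant genes had values nearer to 0 over all cells. Over all cells, Spearman's rho was 0.123 for Tek with Ptprb, 0.095 for Tie1 with Ptprb, 0.089 for Tek with Tie1, 0.031 for Angpt2 with Tie1 and -0.017 for Angpt2 with Ptprb. With cluster means removed, Tek with Tie1 (0.102) and Tie1 with Ptprb (0.101) were as far from 0 as Angpt2 with Tek.

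To find genes with a like pattern, each of the 4 abundant genes was correlated over the thinned cells with 4985 genes read in at least 20% of them. For Angpt2 the highest was Scn3a, a sodium channel subunit gene, at a rho of 0.446. Next came Thbs1, which encodes a matrix glycoprotein (0.347), Gm525 (0.311), Stab2, a hyaluronan scavenger receptor gene (0.303), and Grap (0.296). The central 95% of the genes lay between -0.121 and 0.145. Scn3a and Angpt2 had a rho above 0 in 12 of 12 blocks, from 0.239 to 0.618, and in 5 of 5 clusters, from 0.059 to 0.476. The mean log level of Scn3a was 0.92 in the Ptx3+ capillary-like and 0.56 in the upstream-valve-like cluster, and from 0.19 to 0.48 in the others. Igfbp5, which encodes an insulin-like growth factor binding protein, had the lowest rho with Angpt2, -0.375.

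For Tek the same Igfbp5 was the highest, at 0.283. It was followed by Ackr3, a scavenging chemokine receptor gene (0.279), Nos3, the endothelial nitric oxide synthase (0.275), Thbd, which encodes thrombomodulin (0.274), and Podxl (0.269). Igfbp5 was below 0 with Angpt2 and above 0 with Tek in all 12 blocks and all 5 clusters. Its mean log level was 3.06 in the Ptn cluster and 0.61 in the Ptx3+ capillary-like cluster. For Tie1 and Ptprb the highest values were lower, Reln at 0.210, Ltbp4, Timp2, Tspan18 and Plekhg1 for Tie1, and F11r at 0.218, Emilin1, B2m, H2-Q6 and Ednrb for Ptprb. Such weak correlations in sparse counts are given as values only.

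The other genes of the pathway analysed here numbered 48. They had reads in a median of 45.1% of cells, and 22 of 48 had reads in at least 50% of cells. Genes whose products meet Ptprb at cell junctions were abundant: Cdh5 (VE-cadherin) had reads in 96.8% of cells, Jup (plakoglobin) in 96.2%, Kdr (VEGF receptor 2) in 98.8% and Fgd5 in 73.3%. Integrin genes, whose products can bind angiopoietins or Svep1, ranged from 48.5% for Itgav to 88.4% for Itgb1, with Itga9 at 74.8%.

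Downstream genes were mixed. Among 9 adaptors that act near the receptor, Shc1 had reads in 85.8% of cells and Nck1 in 67.99%, whereas Grb14 had reads in 1.98% and Dok2, a docking protein gene, in 0.610%. Among the PI3K, Akt and Erk kinases, Akt1 had reads in 63.3% and Akt2 in 35.1% of cells. Foxo1, a transcription factor that Akt holds out of the nucleus and that can drive Angpt2, had reads in 60.5%, Foxo3 in 38.4% and Foxo4 in 36.7%. The protease genes Adam10, Adam17 and Mmp14, which can shed receptor ectodomains, had reads in 86.4%, 45.3% and 43.6%.

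Among 11 transcription factor genes, Klf4 and Prox1 both had reads in 97.1% of cells, Epas1 in 94.1%, Ets1 in 92.4%, Klf2 in 82.3% and Erg in 77.1%, while Foxc1 had reads in 26.8% and Foxc2, a valve factor, in 15.9%. The growth factor genes Vegfc and Vegfd and Ccbe1, whose product helps to activate Vegfc, had reads in 0.305%, 8.54% and 1.37% of cells, and Flt4, the receptor for both VEGF ligands, in all of them. Of the secreted factors of the system and of these lists, Angpt1, Svep1, Vegfc, Vegfd and Ccbe1 thus had reads in at most 8.54% of cells and Angpt2 in 79.4%.

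**Figure D5:**
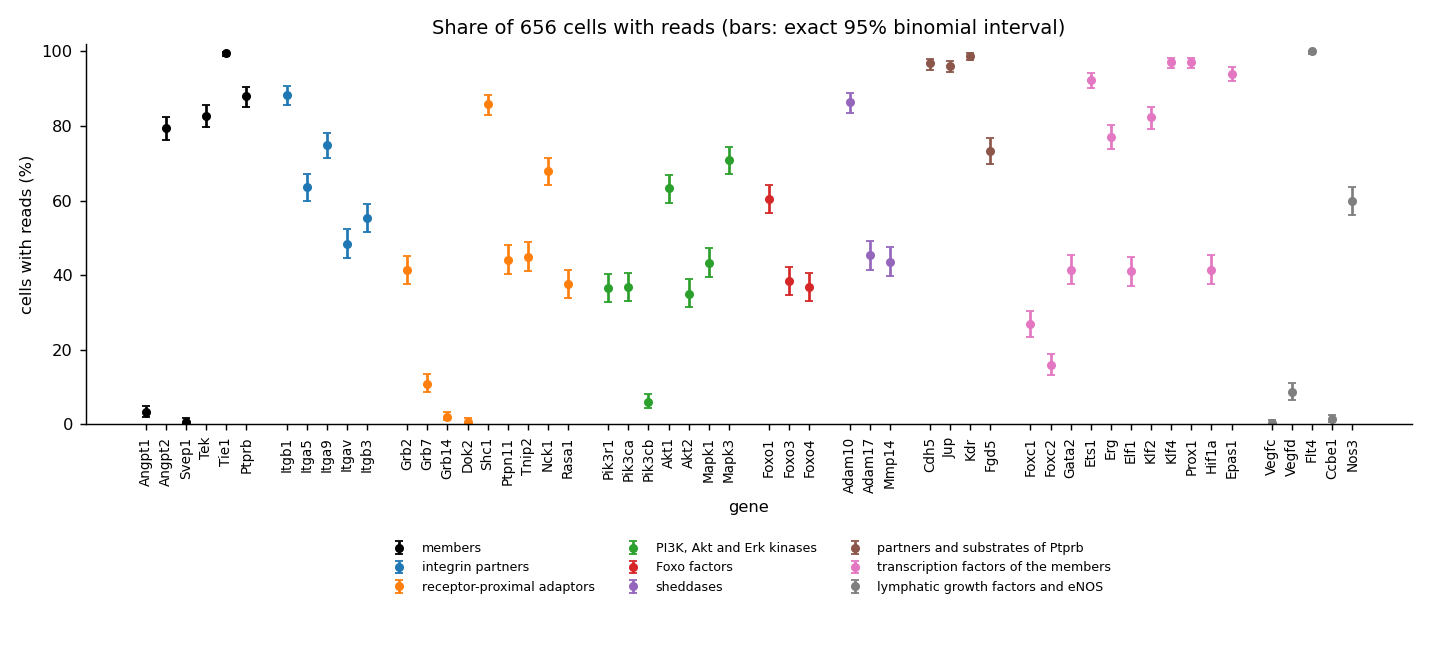
Share of cells with reads of each gene, in percent, with exact 95% binomial intervals, for the 6 genes of the system (black) and pathway genes in 8 lists. Tie1, Ptprb, Tek and Angpt2 lie at 79.4% to 99.5%, and Angpt1 and Svep1 at 3.20% and 0.610%.

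Over the clusters, 5 of the 40 pathway genes with reads in at least 20% of cells differed at least 2-fold, against 19.3% of all genes compared. Nos3 differed most, 4.80-fold, and was highest in the Ptn cluster and lowest in the Ptx3+ capillary-like cluster, the same clusters as for Tek. Gata2 (2.60-fold), Itgav (2.32-fold) and Itgb3 (2.27-fold) had their highest linear means in the upstream-valve-like cluster, as Angpt2 and Ptprb had. Epas1 (2.22-fold) was highest in the Apoe-Bmp4 cluster. All adaptors, kinases, Foxo factors, sheddases and Ptprb partners that were compared differed less than 2-fold, as Tie1 did.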

How the data were processed

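Per the labels and the methods, the authors aligned Smart-seq3 reads to mm10 (STAR), summed them by gene (featureCounts of Subread), kept cells with at least 2000 genes and at most 10% mitochondrial reads, and normalised with Seurat 4.1.0. The deposited values are natural log values of 1 plus reads per 10000: although log2 is described, their exponentials minus 1 sum to 10000 in each cell. The unit is reads, so PCR copies of a molecule count separately. Of 1152 labelled cells, 656 were analysed here and 496 were not.

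Taking the smallest value of a cell as 1 read gave whole reads for 100% of values (tolerance 0.01 reads). Clusters used Seurat 5.3.0 (R 4.3.3) with 2000 variable genes, 15 components, the study's regressed covariates (total reads, mitochondrial share, dissociation and ribosomal scores) and the lowest resolution in steps of 0.1 giving at least 5 clusters, 0.7. A marker was raised at 1.5 times the other cells. Exon lengths came from GENCODE M21, which held 22258 of 23168 symbols. No doublet caller was run, since cells were sorted singly. Genes named are the 6 members, the pathway lists, annotated neighbours and the 5 highest correlates of each abundant member, with the lowest correlate of Angpt2, added after its value was seen. The members and lists were chosen with earlier results of these data known. Read recovery, thinning, cluster folds and clustering were tested on simulated data, and correlation on permuted reads with a planted partner. Simulated reads per cell were capped well below the deepest real cells, so these tests did not cover the full depth of the data. Angpt4, of the pathway lists, and Krt5, Krt14 and Ppbp were not analysed here; Vegfd was also listed under its older symbol, Figf. 1 listed gene is not reported by name here.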

Additional observations from a re-analysis of the deposited data

How the results depend on the processing

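No paired analysis was possible because all cells belong to 1 group. A median is taken over the 6 genes unless stated. The median share of cells with reads, 81.1%, was 45.4% for values above 1, 64.2% thinned to 20000 reads, 68.2% thinned to 50000 reads and 85.9% in cells with at least 3000 genes. Over the other pathway genes it was 45.1% and became 11.6%, 31.2% (20000 reads) and 50.2% in the same order; fewer reads or a higher limit lower a share by construction. The Angpt2 range over clusters, 1.06, was 1.70 at resolution 1.0 and 1.73 at 1.5, and the median range, 0.35, was 0.56 and 0.62, with 7 and 10 clusters in place of 5. In each reclustering but that without regression, the cluster highest in mean log Angpt2 drew more cells from main cluster 1 than from any other. The Tek range, the rho of Angpt2 with Tek and the exclusion of blocks 8 and 9 were added after seeing the data. Without regression the Tek range fell from 0.87 to 0.37, with an adjusted Rand index of 0.302 to the main clusters; the cause was not tested. The rho of Angpt2 with Tek was -0.101 with cluster means removed. Leaving out each block gave -0.181 to -0.154 for that rho, 3.001 to 3.22 for Tie1 over Tek, 417.2 to 590.8 for Angpt2 over Angpt1, 80.4% to 82.2% for the median share, 0.97 to 0.99 for the median level and -0.015 to 0.0025 for the median pairwise rho. The other alternatives for these results, among them leaving out blocks 8 and 9 and cells with genes of other cell types, stayed within 1.5 times or within the interval; the pairwise median rho, -0.014, stayed within -0.017 to 0.014.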
